A study of Mus musculus with 3264 samples.

Results

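Among single cells picked from a mixture of mouse cell lines after time-lapse imaging, progenitor cells with a high level of Hmox1 were compared with progenitor cells that had little or none. The members were chosen from the RNA counts themselves. A well counted as a progenitor well when the progenitor markers Plac8, Ifitm1, Mef2c, Cd34 and Tyrobp made up at least 70% of the summed counts of 15 line markers, the other 10 being Cd7, Cacna2d2, Capn3, Aass and S1pr4 for the leukemia line and Bcl11b, Ccdc91, Skap1, Sp9 and Rora for the T line. It was called Hmox1-high at 500 or more Hmox1 counts per 1e+06 counts of the well (CPM) and Hmox1-low below 100 CPM. Progenitor wells made up 25.99% of the time-lapse wells, which are part of the 1836 wells of the cell line table, and 39.3% of them were Hmox1-high, 19.8% Hmox1-low and 40.8% between the limits. The comparison was made within the 12 plates that held both kinds, with 68 Hmox1-high and 47 Hmox1-low wells, and Hmox1 itself was left out of it. A further 35 Hmox1-high and 5 Hmox1-low wells lay on 4 plates that held only 1 of the kinds.

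The series measured RNA in single wells, each meant to hold 1 cell. The mixture held murine T cells, leukemia cells and hematopoietic progenitor cells. The time-lapse cells were isolated by ALPS, an automated picker, after imaging, on 16 plates labelled 3mix-timelapse, with the cell type given as random selection and the strain as NA. Cells of the same mixture were also picked at random (3mix-random) or by type (3mix-target) without such imaging, or sorted by flow cytometry (3mix-FACS), and serve here as a reference level. Every group was mouse, with no genotype, treatment, age or name of a line on the labels, and nothing on the labels sets Hmox1-high wells apart from Hmox1-low wells. Imaging time, medium and culture of origin are not stated on the labels. The progenitor wells are cells of a line, not of bone marrow, and the labels do not say how many cultures they came from, so a class was treated as a single sample and no test between the classes was made. The intervals in brackets are exact 95% Poisson intervals for levels and Clopper-Pearson intervals for shares, and cover counting error only.

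Hmox1 encodes heme oxygenase, the enzyme that opens the heme ring and releases iron, carbon monoxide and biliverdin. Its gene is a classic target of the transcription factor Nrf2 (Nfe2l2), which is held down by Keap1 until oxidants or electrophiles modify Keap1, and of the heme-sensing repressor Bach1, which leaves its sites when heme binds it. Nrf2 with a small Maf partner and Bach1 with the same partners compete for antioxidant response elements, and the other genes that carry such elements make glutathione, rebuild thioredoxin and peroxiredoxin, and supply NADPH.

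Depth and line markers were close between the classes. The median well held 30860.2 counts in the Hmox1-high class, 35801 between the limits and 32204 in the Hmox1-low class, over a range of 10233 to 112183, and the median numbers of detected genes were 5262, 5750.0 and 5445. The ribosomal RNA precursor Rn45s accounted for 13.4%, 13.5% and 13.8% of the counts of the median well in the same order. A T line marker count was present in 3.88% of the Hmox1-high wells (4 wells), 8.41% of the wells between (9) and 1.92% of the Hmox1-low wells (1), and a leukemia line marker count in 23.3%, 28.04% and 32.7%. All 70 target wells that passed the progenitor rule were labelled progenitor cells, while of the 52 FACS wells that passed it 13 were, so wells were taken by their markers and not by the FACS labels.

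The antioxidant response element has the core TGACNNNGC, and promoter windows that hold it show where the genes described below carry the letters through which Nrf2 and Bach1 are known to act. RefSeq promoter windows (assembly GRCm38.p6, the 250 bases before the start site were searched on both strands) were found for 14 of the 18 Nrf2, heme and iron genes that were higher in Hmox1-high wells, and 5 of these held the core. Those of Gclm, Prdx1, Mafg and Flvcr1 are printed on the gene's strand, 5′ to 3′, with the match in capitals. The Gclm window lies at chr3:122245378-122245476 (plus strand) and the Prdx1 window at chr4:116685421-116685519 (plus strand), both outside annotated exons. The Mafg window lies at chr11:120633716-120633797 (minus strand), over an exon of the predicted gene Gm17586, and the Flvcr1 window at chr1:191026288-191026386 (minus strand), over an exon of A230020J21Rik.
Gclm: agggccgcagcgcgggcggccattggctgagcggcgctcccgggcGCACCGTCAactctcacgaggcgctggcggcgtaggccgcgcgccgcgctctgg
Prdx1: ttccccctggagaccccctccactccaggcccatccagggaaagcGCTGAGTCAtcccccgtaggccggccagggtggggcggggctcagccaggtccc
Mafg: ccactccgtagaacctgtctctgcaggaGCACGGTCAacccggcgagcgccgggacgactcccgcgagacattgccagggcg
Flvcr1: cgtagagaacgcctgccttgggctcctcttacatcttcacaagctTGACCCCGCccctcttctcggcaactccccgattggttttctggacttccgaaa
The fifth match was in G6pdx. The Prdx1 match also holds the letters TGAGTCA, a form of the AP-1 motif TGANTCA, which overlaps the element's core. The core was present in the windows of 11.5% of all genes of the RefSeq table, 14.6% of the 5019 genes compared here that had a window, 24.2% of the genes higher in Hmox1-high wells that had one (40 genes) and 16.8% of the lower ones (18 genes). A match describes letters only, and distant elements lie outside these windows.

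Hmox1 varied widely within the imaged progenitor cells. Over the progenitor wells it ran from 0 (16 wells) through a median of 385.7 CPM to 7546 CPM, and its median per plate from 35.1 CPM on plate 14 to 1074.8 CPM on plate 11. The share of Hmox1-high wells, 39.3% [33.4 to 45.5] over all plates, was lowest for plate 16, with none of 13 wells, and highest for plate 12, with 12 of 15. The 2 wells nearest the upper limit on each side held 502.4 and 503.6 CPM inside it and 499.4 and 497.6 CPM outside it, and those at the lower limit 88.9 and 87.7 CPM inside and 101.8 and 104.4 CPM outside, so wells on either side of a limit had nearly the same level. These values chose the classes and are given as a description.

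**Figure D1:**
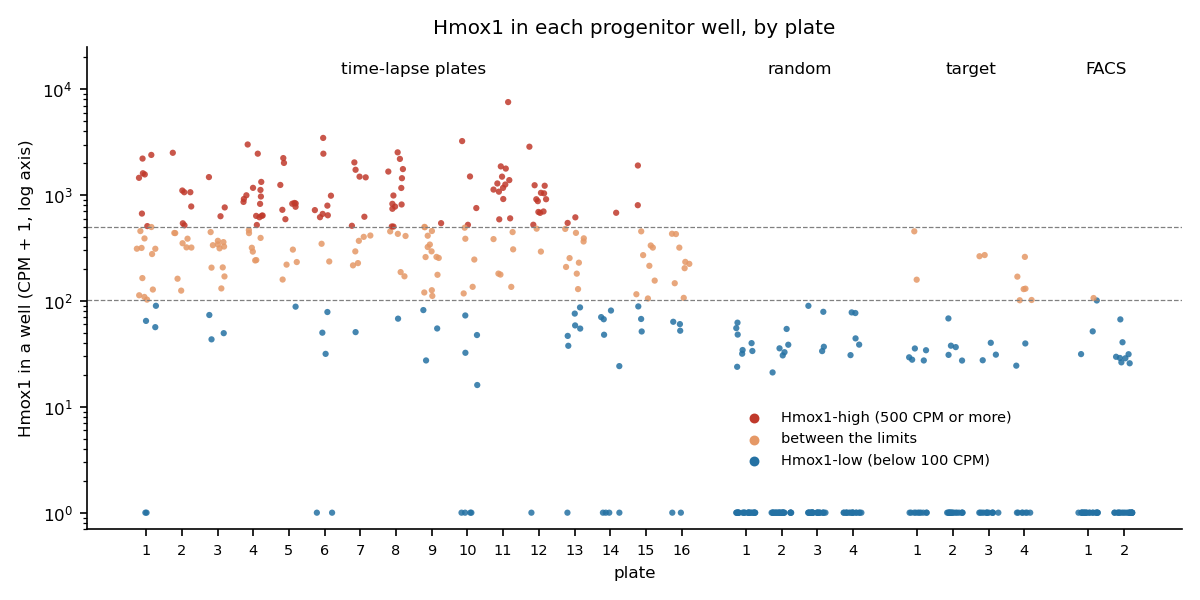
Hmox1 in each progenitor well (CPM + 1, log axis) by plate, for the 16 time-lapse plates and the random, target and FACS plates. Points are wells coloured by class and the dashed lines are the limits of 100 and 500 CPM. Wells above 500 CPM occur on 15 of the 16 time-lapse plates and on none of the other plates.

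Outside the time-lapse plates no random-picked progenitor well, 0 of 70 target wells and 0 of 52 FACS wells were Hmox1-high, which over all of them allows a share of up to 1.29%. Their highest well held 453.02 CPM, and 11 lay between the limits, 10 of them target wells. The other lines on the time-lapse plates were lower too. In T line wells the median was 52.8 CPM and 10 wells were at 500 CPM or more (3.21% [1.55 to 5.82]), and in leukemia line wells none was, which allows up to 0.711%. Limits for a count of 0 are 3 counts divided by the number of wells. The time-lapse and other plates differ in imaging and in plate and perhaps culture, which cannot be told apart here.

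Counts were summed per plate and class, scaled to CPM, and the Hmox1-high minus Hmox1-low difference was taken within each plate as log2(CPM + 1) and averaged over the 12 plates with weights by well number. A gene is called higher or lower below when that mean difference was at least 2-fold and had the same sign on all 4 plates with at least 3 wells of each class. Those are plates 1, 3, 6 and 10, with 22 Hmox1-high and 21 Hmox1-low wells and 55.9% of the weight. Of the other compared plates, 4 held a single Hmox1-low well and 2 a single Hmox1-high well. A count of signs over all 12 plates thus rests in part on single wells. Of 6322 genes with at least 20 CPM in a class and 30 counts over both, 3.43% were higher and 2.15% were lower, and the median difference of all of them was 0.12 on the log2 scale (SD over genes 0.67). The CPM given without a plate are of the summed counts of a class on the 12 plates. The weighted difference gives small plates a say that summed counts do not, and where a plate's class has no count its size rests on the 1 CPM added, so both are given. In wells thinned to the same depth, which left 9 plates with 32 Hmox1-high and 33 Hmox1-low wells, the shares were 1.57% higher and 1.09% lower. With the wells between the limits added to the low class 0.43% were higher, and without plate 3 it was 5.42%. Which genes were called also changed: 20.7% of the higher and 8.09% of the lower genes were called again in the thinned wells. The number of the 27 alternative settings in which a gene kept its call is therefore given for the main genes below. Values for the 4 plates are in the order 1, 3, 6 and 10. Overlap between plates refers to these 4 plates only. A called gene had to have the same sign on them, and the share of all genes without overlap was not computed. The absence of overlap is thus a description of a gene and has no background.

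Nrf2 target genes made up a part of the higher genes. Of the 39 genes of the Nrf2 lists (33 of glutathione, thioredoxin and detoxification and 6 of NADPH supply), 31 were measured, 15 were higher (48.4%) and none was lower, against 3.43% and 2.15% of all genes. Of the 31, 4 reached 20 CPM in the Hmox1-high class alone and so had to be higher there, and 2 of these are among the 15 (Gstm1 and Me1). The median difference was 1.21 for the 25 measured genes of the first list and 0.80 for the 6 of the second. On the 4 plates the first list's median was 1.11, 0.57, 1.62 and 1.37. Over the alternative settings between 4 and 16 genes of the lists were called higher, 6 of them in the thinned wells, and all 15 kept a difference above 0 in each setting. With the same sign required on 80% of all compared plates 6 were called higher, and Gclm, Prdx1 and Sqstm1 were not among them. In 3 settings 1 list gene was called lower: Mafk with the high class at 1000 CPM or more and without plate 10, and Sod2 on plates with at least 5 wells of each class. Srxn1 kept its call in all 27 settings, Gclc and Mafg in 26, Gclm in 25, Prdx1 (and Bach1 of the heme list) in 24 and Sqstm1 in 23, while Nqo1 and G6pdx did in 17. Of the rest, Gstm1 and Esd kept it in 23, Pgd in 22, Cat in 21, Gsr in 20, Me1 in 19 and Abcc1 in 18. The lists were written with earlier results of these data known, so the counts describe the lists and are not independent evidence for them. The other 8, all of the first list, were below the minimum. Slc7a11, the cystine carrier, was one of these, at 15.2 CPM in the Hmox1-high class and 0 in the Hmox1-low class, and Gstm5 and Mgst1 had no count.

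Glutathione synthesis starts with glutamate-cysteine ligase, and both of its subunits were higher. Gclm, the modifier subunit, was at 1074.5, 1057.3, 881.8 and 662.4 CPM in Hmox1-high wells of the 4 plates and at 238.4, 482.98, 124.3 and 66.5 CPM in Hmox1-low wells. Among these 4 plates the lowest Hmox1-high plate thus lay above the highest Hmox1-low plate. Over all 12 plates Gclm was above 0 on 9. In single wells Gclm ran from 0 through a median of 919.7 to 2745 CPM in the 68 Hmox1-high wells and from 0 through 228.04 to 1205.5 CPM in the 47 Hmox1-low wells, so the wells of the classes overlap. The summed levels were 921.7 CPM [880.5 to 964.4] and 302.7 CPM [275.9 to 331.3], a ratio of 3.05, and the weighted difference was 2.10.
Gclc, the catalytic subunit, was at 834.9, 789.3, 1090.4 and 793.5 CPM in Hmox1-high and 504.8, 120.7, 190.2 and 136.3 CPM in Hmox1-low wells, again with no overlap between plates. Its wells had medians of 707.9 CPM (131.2 to 7292) and 188.8 CPM (0 to 3839). The summed levels were 1010.5 CPM [967.3 to 1055.1] and 317.5 CPM [290.1 to 346.8], with a weighted difference of 2.05. Gsr, which reduces oxidized glutathione, was at 89.4 against 45.1 CPM and was called higher with a weighted difference of 1.66, the largest plate value coming from plate 6, where the Hmox1-low wells had no count.

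The peroxiredoxin cycle showed the same direction. Srxn1, sulfiredoxin, which restores over-oxidized peroxiredoxin, was at 208.7, 476.5, 391.4 and 302.6 CPM in Hmox1-high wells and at 14.02, 68.997, 80.5 and 0 CPM in Hmox1-low wells. These 4 plates did not overlap, and over all 12 plates Srxn1 was above 0 on 10. Its single wells ran from 0 through 283.6 to 1802 CPM against 0 through 26.96 to 1406.4 CPM, with a count in 63 of 68 and 26 of 47 wells. The highest Hmox1-low well lay far above its class, which summed to 76.6 CPM [63.5 to 91.7] against 387.9 CPM [361.3 to 415.9], 5.06 times as much in the Hmox1-high class. The weighted difference of 3.10 includes 8.25 on plate 10, where the Hmox1-low wells had no count.
Prdx1, a peroxiredoxin that reduces hydrogen peroxide, was at 2597, 2874, 2392 and 2629 CPM against 539.9, 1557, 603.4 and 445.4 CPM, with no overlap between plates. Its classes summed to 2476 CPM [2408 to 2545] and 1036.7 CPM [986.7 to 1088.6] and its weighted difference was 1.45. Thioredoxin reductase, Txnrd1, was at 485.6 against 281.4 CPM, above 0 on 10 of 12 plates, and its difference of 0.87 did not reach 2-fold. Thioredoxin itself, Txn1, stood at 627.2 and 595.4 CPM with a difference of 0.15. The superoxide dismutase Sod1 (0.15) and the glutathione peroxidases Gpx1 (-0.16) and Gpx4 (0.12) were likewise within 2-fold.

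Other enzymes and carriers of the lists followed. Sqstm1, the p62 protein that delivers Keap1 to autophagy and is itself an Nrf2 target, was at 2281, 1559, 2022 and 1987 CPM against 532.9, 940.1, 658.3 and 398.8 CPM, with no overlap between plates. Its single wells ran from 528.6 through 1849 to 5224 CPM and from 100.9 through 670.7 to 4688 CPM. The weighted difference was 1.35. Catalase, Cat, which splits hydrogen peroxide, was at 618.7 against 351.6 CPM (1.38), the esterase Esd at 871.5 against 389.95 CPM (1.21), and Abcc1, which exports glutathione conjugates, at 214.3 against 110.1 CPM (1.14). Nqo1, a quinone reductase often used as the marker of Nrf2 activity, was at 60.4 CPM [50.2 to 72.1] against 41.2 CPM [31.7 to 52.6], with a weighted difference of 1.28. Gstm1, a glutathione transferase, had 73.5 counts in the Hmox1-high and 6 in the Hmox1-low class, 36.1 against 3.86 CPM, and no count in the Hmox1-low wells of any of the 4 plates, so its weighted difference of 4.30 is set by the 1 CPM added. Reads of Gstm1 may be shared with its close paralogs.
Of the NADPH suppliers, Pgd was at 904.5, 824.01, 804.4 and 423.7 CPM against 266.4, 655.5, 270.6 and 172.8 CPM (weighted difference 1.10), so that its plates overlap. G6pdx, the first enzyme of the pentose phosphate pathway, was called with a difference of 1.01, right at the limit, and its summed levels of 265.9 and 197.7 CPM stood in a ratio of only 1.34. Malic enzyme, Me1, was at 39.8 against 10.6 CPM (1.61). Taldo1 (0.59), Idh1 (0.45) and Tkt (0.15), further genes of that supply, were within 2-fold.

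**Figure D2:**
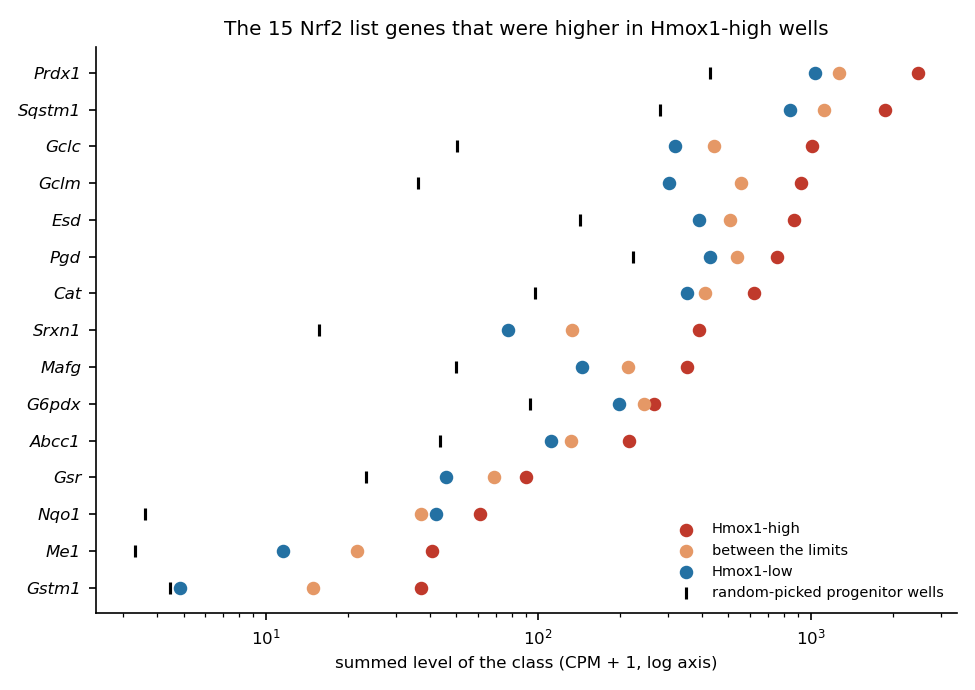
Summed level (CPM + 1, log axis) of the 15 Nrf2 list genes that were called higher, in Hmox1-high wells, wells between the limits and Hmox1-low wells of the 12 plates, and in random-picked progenitor wells. For 14 of the 15 the wells between the limits lie between the classes, and for all 15 the Hmox1-low class lies above the random-picked wells.

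Among the regulators, the small Maf partner Mafg was called higher and stood above 0 on all 12 plates. It was at 264.8, 516.2, 326.9 and 369.9 CPM in Hmox1-high and 126.2, 112.1, 51.2 and 99.7 CPM in Hmox1-low wells, with no overlap, and its weighted difference was 1.68. Bach1, the repressor of these genes and itself a known Nrf2 target, was higher as well, at 238.9 CPM [218.1 to 261.1] against 104.97 CPM [89.5 to 122.4] and with a difference of 1.46. The transcript of Nrf2, Nfe2l2, was at 209.2 against 130.1 CPM with a difference of 0.89, above 0 on 10 of 12 plates and under 2-fold. Keap1 was at 131.6 against 94.7 CPM (0.29). Nrf2 is regulated mainly through protein stability, which RNA counts do not measure.

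For most called genes the wells between the limits lay between the classes. For the 15 Nrf2 genes the Hmox1-low wells were themselves above cells picked without time-lapse imaging. Gclm was at 556.7 CPM [529.5 to 585.02] between the limits, Gclc at 441.5 CPM, Srxn1 at 131.8 CPM, Prdx1 at 1269.6 CPM, Sqstm1 at 1115.9 CPM and Mafg at 213.7 CPM. The order high, between, low held for 14 of the 15 Nrf2 genes, Nqo1 being the exception at 36.2 CPM, and for 87.6% of the higher and 77.2% of the lower genes. In the random-picked progenitor wells Gclm was at 35.3 CPM, Gclc at 49.5, Srxn1 at 14.8, Prdx1 at 427.7, Sqstm1 at 279.1, Bach1 at 36.0 and Mafg at 48.9 CPM. For all 15 Nrf2 genes the Hmox1-low class exceeded the random, target and FACS levels. Against the random level alone it was higher for all 15, and for 58.5% of all higher genes. The share over all genes compared was not computed.

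**Figure D3:**
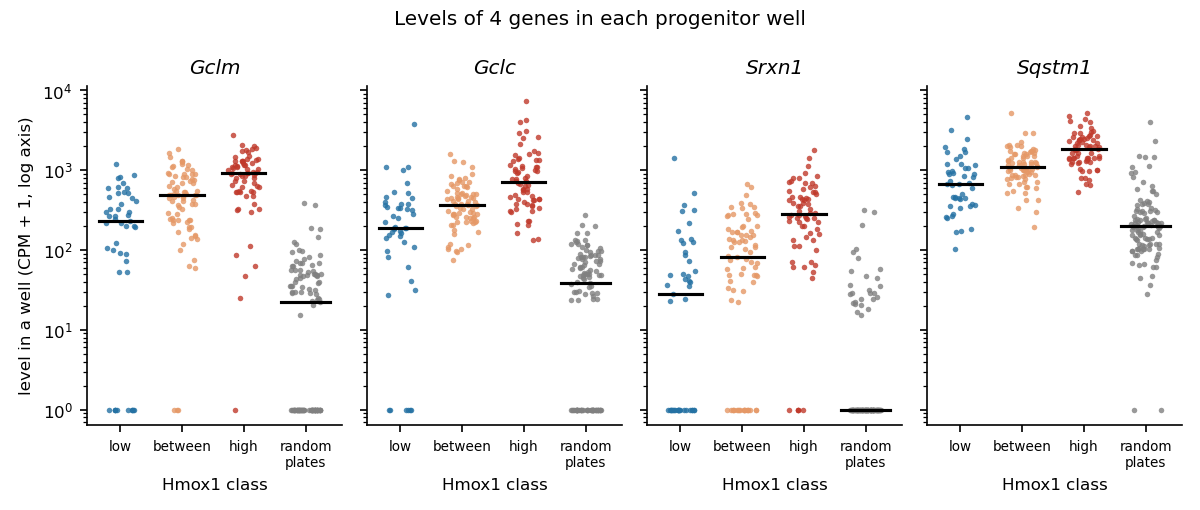
Level of Gclm, Gclc, Srxn1 and Sqstm1 in each progenitor well (CPM + 1, log axis), by Hmox1 class on the 12 compared plates and in random-picked wells. Black lines are medians, which for Gclm are 228.04, 485.96 and 919.7 CPM in the low, between and high classes. The classes overlap in single wells and their medians rise in order.

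Over all time-lapse progenitor wells the rank correlation with Hmox1 (Spearman's rho, a description in which the 2 genes of a pair share a well's depth and plate) was 0.61 for Sqstm1, 0.60 for Srxn1, 0.58 for Gclm, 0.52 for Gclc and Fth1, 0.51 for Mafg, 0.50 for Prdx1 and 0.38 for Txnrd1. It was 0.08 for Sod1, 0.03 for Txn1, -0.11 for Ncl and -0.24 for Gpx1. Taken within each of the 16 plates, rho was above 0 on 16 plates for Srxn1, on 15 for Sqstm1, Gclc, Prdx1 and Fth1 and on 14 for Gclm, with a median over plates of 0.59 for Srxn1 and 0.39 for Gclm. Sqstm1, Srxn1, Gclm, Gclc, Mafg and Prdx1 were called from classes cut on Hmox1 in these same wells. Their rho above 0 follows in part from that choice and is no independent evidence.
The 35 Hmox1-high wells on plates 2, 4 and 11, which had no Hmox1-low well and did not enter the comparison, held 967.4 CPM of Gclm, 785.9 CPM of Gclc, 390.9 CPM of Srxn1, 2552 CPM of Prdx1, 2280.2 CPM of Sqstm1 and 318.8 CPM of Mafg. Nqo1 was at 37.3 CPM there, below the 41.2 CPM of the Hmox1-low class. The 5 Hmox1-low wells of plate 16, which had no Hmox1-high well, held 153.7, 333.5, 962.8, 356.2 and 189.5 CPM of Gclm. The compared Hmox1-low class summed to 302.7 CPM of Gclm. In these 5 wells Prdx1 ran from 359.1 to 2763 CPM and Srxn1 from 0 to 59.4 CPM, so they were not uniformly low.

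Heme and iron genes moved in part. Of 23 listed genes 15 were measured, 3 were higher (20%, against 3.43% of all genes) and 1 lower (6.7%, against 2.15%), with a median difference of 0.32. The heme carriers were among them: Slc48a1, which moves heme out of the lysosome, was at 193.3, 277.98, 249.5 and 127.8 CPM in Hmox1-high and 98.2, 120.7, 109.7 and 26.6 CPM in Hmox1-low wells, with a weighted difference of 1.21, and the heme exporter Flvcr1 was at 41.2 CPM [32.9 to 51.1] against 13.5 CPM [8.37 to 20.7] (2.47), having reached 20 CPM in the Hmox1-high class alone. The third was Bach1. Slc48a1 kept its call in 23 of the 27 settings and Flvcr1 in 21. Tfrc, the transferrin receptor that takes up iron, was the lower gene. It was at 15.5, 39.7, 21.5 and 73.97 CPM against 126.2, 60.4, 65.8 and 136.3 CPM, and the summed levels were 39.5 CPM in Hmox1-high wells, 97.1 CPM between the limits and 128.8 CPM in Hmox1-low wells. The weighted difference was -1.01, at the limit, and the call was kept in 14 of the 27 settings. It was lost with median-of-ratios scaling, with equal plate weights and without any 1 of plates 1, 6, 7, 9, 13 and 15.
The ferritin subunits store the iron that heme oxygenase releases. Fth1, the heavy chain, was at 13552, 8806, 8758 and 6392 CPM against 4356, 6486, 3799.8 and 2652 CPM, higher in the Hmox1-high wells of each of these plates, but its weighted difference of 0.83 was under 2-fold. Ftl1, the light chain, was at 7958 against 5319 CPM (0.63). Enzymes of heme synthesis named here were not called: Alas1 had a difference of 0.78, Cpox 0.32 and Urod -1.02, the last with different signs among the 4 plates. Biliverdin reductase Blvrb stood at 37.3 and 20.6 CPM (0.30), and the constitutive heme oxygenase Hmox2 at 43.7 and 50.9 CPM (-0.31).

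Some metal and lysosome genes were also higher. Mt1, a metallothionein that binds zinc and copper, was above 0 on all 12 plates, at 1314.9 CPM [1265.6 to 1365.7] against 648.2 CPM [608.8 to 689.5], with a difference of 1.04. It kept its call in 19 of the 27 settings, and lost it without plate 1, 8 or 12. Mt2 was at 654.9 against 245.05 CPM and was not called, with 1 of the 4 plates below 0. The zinc exporter Slc30a1 was called at 26.6 against 14.8 CPM, but its difference of 1.77 became -0.64 in wells thinned to equal depth. It reached 20 CPM in the Hmox1-high class alone. Of 23 lysosome and autophagy genes 19 were measured and 5 were higher (26.3%, against 3.43% of all genes), with a median of 0.91 and none lower. Ctsb, a lysosomal protease, was at 827.2, 327.6, 726.9 and 679.2 CPM against 119.2, 189.7, 168.2 and 109.7 CPM (1.48), Hexa at 138.95 against 90.2 CPM (1.14) and Cd68 at 20.6 against 14.2 CPM (1.45). Sqstm1 was also among them. Of the 19 measured genes 2 reached 20 CPM in the Hmox1-high class alone, and Cd68 was 1 of these. Lipa, the lysosomal acid lipase, was at 502.5, 228.3, 388.5 and 221.9 CPM against 56.1, 120.7, 58.5 and 26.6 CPM, with no overlap and a difference of 2.07. It was above 0 on 9 of the 12 plates.
Stress lists had up to 3 calls each. Of 12 measured p53 targets 3 were higher (25%, against 3.43% of all genes), namely Mdm2 (265.4 against 134.6 CPM, 1.29), Aen (40.8 against 18.03 CPM, 1.59) and Phlda3 (47.1 against 33.5 CPM, 1.24), while Cdkn1a stood at 802.3 and 567.4 CPM (0.89). Aen reached 20 CPM in the Hmox1-high class alone and so had to be higher there. Aen kept its call in 23 of the 27 settings, Mdm2 in 22 and Phlda3 in 17. Of 16 measured genes of the Atf4 response 15 had a difference above 0, as did 59% of all genes, with a list median of 0.78. Of these genes 2 were higher (12.5%, against 3.43% of all genes), Trib3 (26.02 against 10.3 CPM) and Cebpb (64.8 against 27.7 CPM). Trib3 reached 20 CPM in the Hmox1-high class alone and kept its call in 17 of the 27 settings. The list's median on the 4 plates was -0.39, 1.73, 0.49 and 0.34, and it ran from -0.21 to 1.395 over the settings. Of 13 measured immediate early genes 2 were higher (15.4%, against 3.43% of all genes), Atf3 and Klf6, and of 17 endoplasmic reticulum stress genes 1 (5.9%), Sel1l, at 1.04. Klf6 kept its call in 20 of the 27 settings and Sel1l in 16. No gene was called among 14 measured chaperones (median 0.07), 31 proteasome subunits (0.05), 17 glycolysis and hypoxia genes (0.24), 7 interferon-stimulated genes (0.23) or 10 NF-kB and inflammatory genes (0.67).

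**Figure D4:**
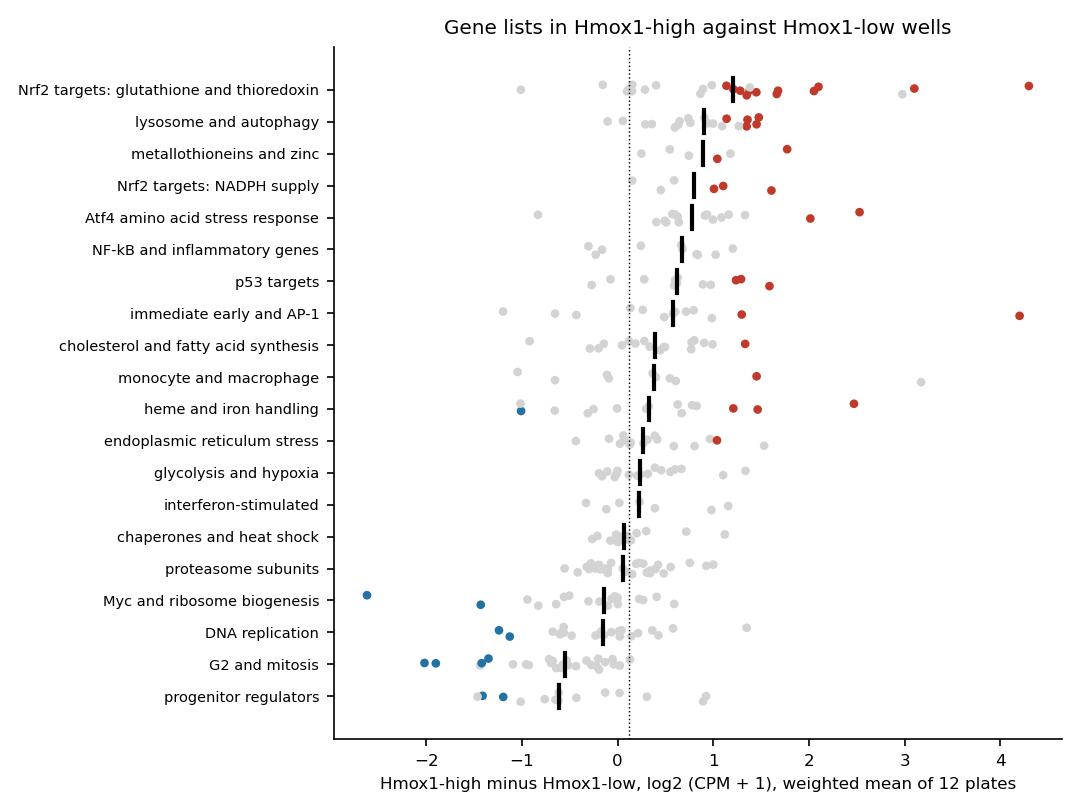
Difference between Hmox1-high and Hmox1-low wells (log2, weighted mean of 12 plates) for each measured member of the gene lists with at least 5 measured members. Points are genes, red where called higher, blue where called lower and grey otherwise, black bars are list medians, and the dotted line is the median of all 6322 genes. The Nrf2 glutathione list has the highest median (1.21) and the progenitor regulators the lowest (-0.62).

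The 15 largest differences above 0, among called genes with at least 50 CPM, were those of Atf3 (4.20), Fnip2 (3.50), Lilr4b (3.18), Srxn1 (3.10), Lilrb4a (2.77), Cpeb4 (2.65), Wfdc17 (2.61), Impact (2.50), Ptafr (2.40), Rit1 (2.23), Cd74 (2.22), Gclm (2.10), Zscan29 (2.08), Cpeb2 (2.07) and Lipa (2.07). Ptafr, the receptor for platelet-activating factor, was at 494.8, 297.8, 167.8 and 255.5 CPM against 112.2, 38.8, 21.9 and 13.3 CPM, with no overlap between plates. The small GTPase Rit1 was at 146.9, 119.1, 249.5 and 80.7 CPM against 14.02, 17.2, 43.9 and 9.97 CPM, also with no overlap and with the smallest spread of the 15 over the 4 plates (SD 0.35). Both were above 0 on 9 of the 12 plates and were called in 24 of the 27 settings. Fnip2, a partner of folliculin in nutrient sensing, was at 128.6 against 26.4 CPM, 4.87 times as much, with a call in all 27 settings, and Impact, an inhibitor of the kinase Gcn2, was above 0 on all 12 plates at 88.5 against 28.3 CPM. The inhibitory receptors Lilrb4a (254.4 against 46.7 CPM) and Lilr4b (153.8 against 27.4 CPM) are near-identical neighbours between which reads can be split, so they count as 1 observation at most. Atf3, a stress-induced repressor, was at 38.7, 119.1, 111.8 and 457.3 CPM against 0, 0, 0 and 302.5 CPM, and its summed levels of 114.2 and 63.1 CPM differ far less than its weighted difference, with 25.3 CPM between the limits.

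**Figure D5:**
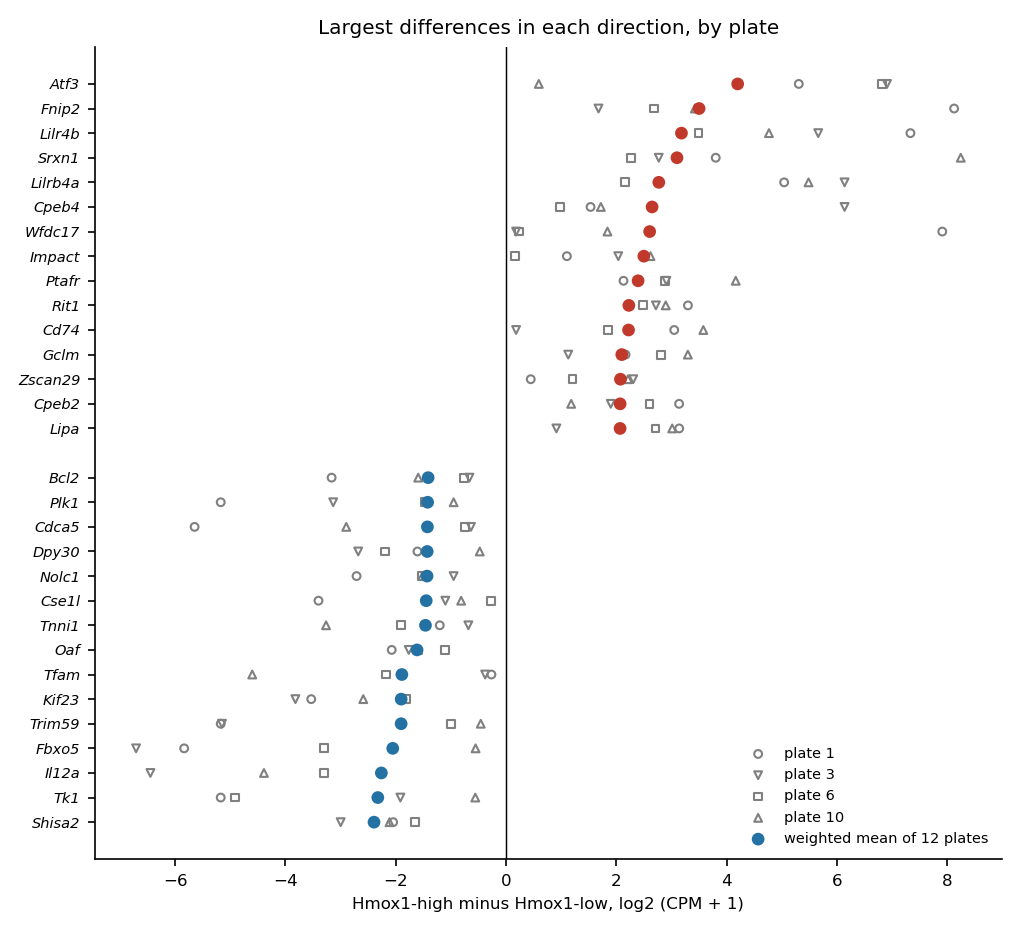
Hmox1-high minus Hmox1-low difference (log2 of CPM + 1) for the 15 largest called differences in each direction. Filled points are weighted means of the 12 plates and open symbols plates 1, 3, 6 and 10. Rit1 (SD 0.35), Oaf (0.41) and Shisa2 (0.57) have the smallest spread over the 4 plates, and Atf3 one of the largest (2.97).

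The 15 largest differences below 0 were those of Shisa2 (-2.39), Tk1 (-2.32), Il12a (-2.26), Fbxo5 (-2.05), Trim59 (-1.90), Kif23 (-1.90), Tfam (-1.89), Oaf (-1.61), Tnni1 (-1.46), Cse1l (-1.45), Nolc1 (-1.43), Dpy30 (-1.43), Cdca5 (-1.42), Plk1 (-1.42) and Bcl2 (-1.41). Kif23, a kinesin of cytokinesis, was at 15.5, 19.9, 38.7 and 20.2 CPM in Hmox1-high and 189.3, 293.2, 138.97 and 126.3 CPM in Hmox1-low wells, with no overlap. It was below 0 on 9 of the 12 plates and kept its call in 23 settings. Its summed levels were 46.6 CPM [37.7 to 57.02] and 132.7 CPM [115.2 to 152.1]. Summed levels differed little for others of these genes, at 46.4 against 51.5 CPM for Fbxo5 and 43.7 against 50.9 CPM for Trim59, and the weighted differences of these genes are larger than those of their summed levels.
All 28 G2 and mitosis genes were measured. Of these 25 had a difference below 0, as did 41% of all genes, 4 were called lower (14.3%, against 2.15% of all genes: Plk1, Kif11, Kif20a and Kif23), none higher, and the median was -0.55. Plk1 and Kif11 kept their calls in 19 of the 27 settings and lost them without plate 1, and Kif20a kept its call in 20. The list's summed level per well had a median of 591.03 CPM in Hmox1-high, 890.9 CPM in wells between and 1785 CPM in Hmox1-low wells, and ran from 0 to 8200.4, 9758 and 8663 CPM, so single wells of each class covered the whole range. Summed over all wells of a class the list differed less, at 2174, 2737 and 3073 CPM in the same order. On plates 1 and 3 the list's median was -3.04 and -2.08, and on plates 6 and 10 it was -0.15 and -0.45, so the size of the difference depended on the plate. Of 22 measured DNA replication genes 2 were lower (9.1%, against 2.15% of all genes), Rrm2 (-1.13) and Cdc45 (-1.24), with a list median of -0.16. Rrm2 kept its call in 16 of the 27 settings and became 0.19 without plate 1. Cdc45 kept it in 14, and lost it without plate 1, 3 or 14, its smallest difference over the settings being -0.02.
Myc, a driver of growth, had 18 counts in Hmox1-high and 60 in Hmox1-low wells, 8.84 CPM [5.24 to 13.97] against 38.6 CPM [29.5 to 49.7], with a weighted difference of -2.62 and 92.2 CPM in random-picked wells. Myc kept its call in 19 of the 27 settings. The call was lost in thinned wells and on plates with at least 3 wells of each class, among others. Of the classes compared, only the Hmox1-low one reached 20 CPM of Myc. Nolc1, a nucleolar protein, was at 41.2 against 113.5 CPM, while the median of the 18 measured Myc and ribosome biogenesis genes was -0.15. Of 14 measured progenitor regulators 2 were lower (14.3%, against 2.15% of all genes), Hoxa9 (111.9 against 163.6 CPM, -1.20) and the survival gene Bcl2 (46.6 against 73.7 CPM, -1.41), and the median was -0.62. Hoxa9 kept its call in 17 of the 27 settings, and lost it without plate 10 or 14, and Bcl2 kept it in 25. Myb (134.9 against 319.1 CPM), Runx1 (35.8 against 81.15 CPM) and Flt3 (85.4 against 151.7 CPM) had summed levels below those of the Hmox1-low wells without a call. The myeloid regulator Spi1 was at 230.5 against 149.4 CPM (0.89).

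The markers of the rule were not called. Plac8 (0.23), Ifitm1 (0.31), Cd34 (0.02) and Tyrobp (0.61) lay within 2-fold, and Mef2c, at 438.95 against 740.6 CPM, had a difference of -0.96. Of the other cell types the wells could hold, the T cell list had 1 of 13 genes measured, Cd28, which was called (177.9 against 74.1 CPM, 1.54) and stood at 75.3 CPM in random-picked progenitor wells. A list with 1 measured gene gives no share to set beside the 3.43% of all genes. Cd28 kept its call in 24 of the 27 settings, but not in thinned wells. The T cell list's summed level ran from 0 to 784.5 CPM in Hmox1-high and 0 to 312.3 CPM in Hmox1-low wells, and Cd3e, Cd3g, Cd3d, Thy1, Bcl11b and Zap70 had no count in the Hmox1-high class. The monocyte and macrophage list had 10 of 22 measured and 1 called, Cd68 (10%, against 3.43% of all genes). Cd68 reached 20 CPM in the Hmox1-high class alone. It kept its call in 20 of the 27 settings, but not in thinned wells. The monocyte and macrophage list's summed level ran from 368.1 to 4405 CPM and from 364.8 to 2947 CPM, with Ms4a6c, F13a1, Spic, Cd163 and Mrc1 at 0 in the Hmox1-high class. Csf1r, the growth factor receptor of that lineage, was at 42.2 against 6.44 CPM with differing signs among plates. The dendritic list had 3 of 13 measured and 1 called (33.3%, against 3.43% of all genes). This was Cd74, the class II chaperone (129.7 against 40.6 CPM), which kept its call in 22 of the 27 settings, but not in thinned wells. H2-Aa and H2-Ab1 had no count in the Hmox1-high class. The part of such cells in the results was not tested. Neutrophil granule, erythroid, megakaryocyte, mast, basophil and B cell lists had no call and at most 1 measured gene each.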

How the data were processed

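Single wells of 16 time-lapse plates were analysed, with random, target and FACS wells as a reference. The deposited table holds expected counts per gene and well made by the authors, of which 5.31% of the values above 0 are not whole. Per the submitters' processing notes bcl2fastq and STAR were used with the mm10 build. The labels do not name the counting step, the annotation or whether molecular barcodes were collapsed. Time-lapse wells with values numbered 1008, of which 262 were progenitor wells (103 Hmox1-high, 52 Hmox1-low, 107 between), beside 312 T line and 422 leukemia line wells, and 233 progenitor wells lay outside those plates (111 random, 70 target, 52 FACS).

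Counts were summed unrounded per plate and class, divided by the class total and multiplied by 1e+06. The difference of log2(CPM + 1) was averaged over 12 plates with weights high × low / (high + low) wells. Calls need a mean of at least 1 and the same sign on plates with 3 wells of each class, which gave 217 higher and 136 lower genes. The text names the 15 largest called differences in each direction at 50 CPM and 30 counts or more in a class (no spike-in, mitochondrial or predicted genes), list members and the rule's markers. A few list members are not reported here. Members and lists were chosen with earlier results of these data known. With 1 sample per class no test was possible, and p-values would count wells as replicates. The calculation was tested on simulated counts. Scripts ran in Python 3.11.15 with pandas 2.3.3, scipy 1.17.1 (intervals), matplotlib 3.10.9 (figures) and numpy 2.4.6.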

Additional observations from a re-analysis of the deposited data

Results flagged for a closer look

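Of the 30 genes named for their size of difference, 1 had a plate that stood apart from the other 3 of the 4 plates with at least 3 wells of each class. Cpeb4, which binds the tails of messenger RNAs, differed by 6.14 on the log2 scale on plate 3, where the Hmox1-low wells had no count, and by 1.53, 0.98 and 1.72 on plates 1, 6 and 10. The gap to the nearest plate was past Dixon's 95% critical value for 4 values, which chance passes in about 1 in 20 groups. With 30 genes looked at, 1 such gene is not more than that rate would give. Cpeb4 kept its call in 26 of 27 alternative settings, but not in thinned wells.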

How the results depend on the processing

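The share of genes called, 3.43% higher and 2.15% lower, depended on the settings. Genes called higher were 2.22% with the low class below 50 CPM, 0.434% with the wells between the limits added to the low class, 1.57% in wells thinned to 20000 counts and 2.15% with 5 CPM added, while plates with at least 5 wells of each class gave 7.85% of the fewer genes tested there and wells with no T or leukemia line marker count 4.38%. Genes called lower were 1.07% with the high class at 1000 CPM or more, 1.23% with the low class below 50 CPM, 1.09% in thinned wells, 1.08% with 5 CPM added, 4.93% and 6.97% on plates with at least 3 or 5 wells of each class, 1.19% with equal plate weights and 0.538% with the same sign required on 80% of all plates, a setting chosen after seeing the data. Leaving out 1 plate at a time gave between 2.99% (without plate 12) and 5.42% (without plate 3) higher and between 1.54% (without plate 14) and 3.18% (without plate 8) lower. Of the calls 61.5% were higher, against 73.8% with equal plate weights, 42.3% on plates with 3 wells of each class, 20.8% with the between wells in the low class and 67.8% with median-of-ratios scaling, which moved the median of all genes from 0.12 to 0.19, and equal weights moved it to 0.29. The share of Hmox1-high progenitor wells was 18.32% at 1000 CPM. Called differences of named genes changed sign in 2 cases: Slc30a1 was -0.637 in thinned wells, and Rrm2 lay between -1.63 and 0.187 without 1 plate, the latter without plate 1. Of all values of named genes and list medians, 94.8% stayed within 1 SD over the 4 plates of the reported value and 5.11% moved further, including medians near 0 that changed sign. The causes were not tested. Thinning left out 39 wells of fewer counts, 22 of them Hmox1-high and 6 Hmox1-low, and left 9 compared plates. Depth, wells and plates thus changed together in that setting. The same split outside the time-lapse plates gave no value, since no well there was Hmox1-high. No paired analysis was possible because replicate numbers on the labels only count wells and pair no Hmox1-high with a Hmox1-low well; plates are the unit within which the classes were compared.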

Other observations

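The T line wells of the time-lapse plates were split at the same limits, after the progenitor values were seen, on the 4 plates that held both kinds, which left 10 Hmox1-high and 32 Hmox1-low wells and no test. Of the 15 Nrf2 list genes higher in Hmox1-high progenitor wells, 13 had a weighted difference above 0 in the T line, 3 reached 2-fold (Gclm, Gstm1 and Abcc1) and the median was 0.33. Taken from the summed levels without regard to plate, 14 were above 0, 1 reached 2-fold and the median was 0.67, so the size depended on how plates entered. The share over all genes was not computed for this split, so these counts have no background and show nothing particular to these genes. Gclm was at 616.5 CPM [551.6 to 686.99] against 203.4 CPM [184.5 to 223.7], above 0 on all 4 plates, with a weighted difference of 1.33. Mafg (0.98) and Gclc (0.92) were above 0 on all 4 plates and under 2-fold, Nqo1 was at -0.44, and Srxn1 had no count in either class. Over the T line wells the rank correlation with Hmox1, a description over wells that share depth and plate, was 0.63 for Gclm, 0.54 for Pgd, 0.49 for Fth1, 0.42 for Gclc, 0.22 for Esd, 0.21 for Prdx1, 0.20 for Sqstm1 and -0.02 for Srxn1. Within plates its median over 15 plates was lower for the first 4 of these, at 0.38 for Gclm, 0.19 for Pgd, 0.36 for Fth1 and 0.30 for Gclc.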
